A study of Mus musculus with 32 samples.

Results

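The genes described here are the IGHV1 genes that lie nearest to the D segments, taken as those whose number in the gene name runs from 1 to 39. A clonotype, which is one CDR3 nucleotide sequence with its V, D and J gene in one mouse, was counted when the first V gene in its list of hits was such a gene. By this rule 208 of 565 distinct Vh558 clonotypes (222 of 602 table entries before repeat libraries of a mouse were merged) were D-proximal. They fell to 8 of the 24 V genes seen: IGHV1-18, IGHV1-19, IGHV1-20, IGHV1-22, IGHV1-26, IGHV1-34, IGHV1-37 and IGHV1-39. The other 357 clonotypes belonged to 16 IGHV1 genes numbered 40 or above. The amplicons of the other V families, Vh7183 and Vhq52, held 0 of these genes in their 306 entries. The entries used here over the whole series number 908.

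Pro-B cells, gated as B220+ CD43+ IgM- CD25-, were sorted from bone marrow, and their heavy chain rearrangements were compared between control mice (WT) and mice labelled as Setd2 knockout (KO). All mice were 8 weeks old and had no treatment. Genomic DNA was amplified from a Vh558 primer to JH4, and the product was sequenced on a MiSeq. There were 4 WT mice (6 libraries) and 5 KO mice (7 libraries), and the mouse was the replicate. The labels do not say which Cre or allele removes Setd2. The amplicon does not read Setd2, so the genotype of each mouse rests on its label. The labels give genomic DNA as the template, yet their library step mentions an RNA kit with poly-A selection.

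In pro-B cells a heavy chain gene is assembled stepwise: a D segment is joined to a J segment, and one of many V segments is then joined to the DJ unit. The V segments are spread over a very long locus, and those far from the D segments are brought into reach by contraction of the locus, a step that needs factors such as PAX5 and YY1. IGHV1, the former J558 family, is the largest V family of the mouse and stretches from the middle of the locus to its far end. At each join exonucleases can remove bases of the V end, hairpin opening can leave short palindromic (P) bases, and terminal transferase adds bases without a template, so the CDR3 across the join marks one rearrangement.

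The largest D-proximal clonotype of each mouse is printed to show what these joins look like. Each sequence runs 5′ to 3′ from the first base of the CDR3, with the bases assigned to the D segment in capitals, as the deposited table places them.
WT mouse 1418, IGHV1-26 with IGHD2-4, 1241 reads: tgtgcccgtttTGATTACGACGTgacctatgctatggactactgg
WT mouse 1432, IGHV1-18 with IGHD2-3, 960 reads: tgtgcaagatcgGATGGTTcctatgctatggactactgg
WT mouse 1485, IGHV1-26 with IGHD1-1, 947 reads: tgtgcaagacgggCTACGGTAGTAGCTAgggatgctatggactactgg
WT mouse 1536, IGHV1-18 with IGHD1-1, 29 reads: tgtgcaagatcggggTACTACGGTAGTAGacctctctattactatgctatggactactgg
KO mouse 1421, IGHV1-19 with IGHD1-1, 1614 reads: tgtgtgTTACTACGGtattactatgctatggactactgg
KO mouse 1423, IGHV1-22 with IGHD2-8, 2303 reads: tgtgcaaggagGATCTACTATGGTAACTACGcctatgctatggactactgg
KO mouse 1464, IGHV1-26 with IGHD1-1, 560 reads: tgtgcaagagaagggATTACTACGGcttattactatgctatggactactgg
KO mouse 1500, IGHV1-19 with IGHD2-4, 544 reads: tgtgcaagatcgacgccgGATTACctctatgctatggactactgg
All of these end in the same IGHJ4 bases, and most open with the same V bases.
Among V ends that were neither trimmed nor followed by P bases, tgtgcaaga was the commonest form in each of the 7 genes that had any, and 96 of 106 read so. The other 10 were 4 of 43 in IGHV1-26, 3 of 16 in IGHV1-39, 2 of 10 in IGHV1-22 and 1 of 19 in IGHV1-19.
The clonotype of KO mouse 1421 lost 5 V bases and that of WT mouse 1418 lost 4.

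WT libraries held from 612 to 6927 clone reads in 7 to 188 table entries. KO libraries held from 1000 to 9276 clone reads in 5 to 36 entries. The number of D-proximal clonotypes per mouse followed that range: 82, 6, 1 and 92 in WT mice 1418, 1432, 1485 and 1536, and 5, 12, 7, 3 and 0 in KO mice 1421, 1423, 1464, 1500 and 1534. WT mice 1418 and 1536 therefore held 174 of the 208 (83.7%), and pooled values below are mostly theirs. The table lists sequences of at least 2 reads that are in frame, and 107 of the 208 had fewer than 10 reads. Reads were not corrected with molecular identifiers, so intervals cover counting error only. The labels do not say whether libraries of one mouse came from separate DNA.

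The part of the Vh558 clonotypes that used D-proximal genes overlapped between WT and KO mice, within a wide spread. The share was 44.3% in WT mouse 1418 (95% Wilson interval 37.4 to 51.5), 26.1% in 1432 (12.5 to 46.5), 14.3% in 1485 (2.57 to 51.3) and 39.1% in 1536 (33.1 to 45.5). In KO mice it was 31.25% in 1421 (14.2 to 55.6), 21.1% in 1423 (12.5 to 33.3), 21.9% in 1464 (11 to 38.8) and 60.0% in 1500 (23.1 to 88.2). KO mouse 1534 had 0 of 5 clonotypes, with a Wilson upper limit of 43.4%; the limit of 3 counts that is used here for a count of 0 allows a share of up to 60.0%. The groups overlapped, and the highest and the lowest share both came from KO mice with 5 clonotypes. The WT mean was 31.0% ± 13.5 (SD, n = 4) and the KO mean 26.8% ± 21.8 (SD, n = 5), a difference of -4.13 percentage points, which is smaller than either SD. Within sequencing batch 185891a the difference was -0.0024 points, and within batch 187183a, with WT mice 1418 and 1536 against KO mice 1421 and 1423, it was -23.3 points. In that batch KO mouse 1423 had 2 D-proximal entries of 31 (6.45%). Its other library, of batch 186823a, had 10 of 36 (27.8%). KO mouse 1421 had 28.6% of its entries in batch 187183a, where WT mice 1418 and 1536 had 44.4 and 37.2%. In batch 186823a WT mouse 1418 had 50.6% and KO mouse 1421 had 30%. The WT libraries thus lay above the KO libraries in both batches, which share mice 1418, 1421 and 1423. In batch 185891a the libraries of the genotypes overlapped. By reads the WT mean was 24.7% ± 12.9 (SD, n = 4) and the KO mean 22.9% ± 20.5 (SD, n = 5).

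**Figure D1:**
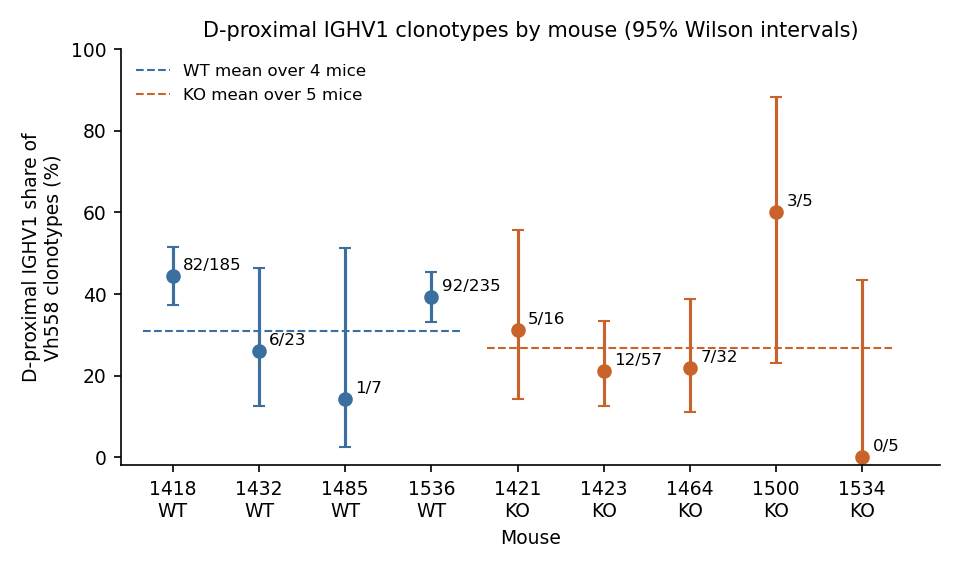
Share of Vh558 clonotypes (%) that used a D-proximal IGHV1 gene, by mouse, with 95% Wilson intervals, the clonotype numbers beside each point and dashed lines at the means of 31.0% (WT) and 26.8% (KO). The WT points lie between 14.3 and 44.3% and the KO points between 0 and 60.0%, with the widest intervals in mice with few clonotypes.

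Among the members, IGHV1-26 was used most. It held 79 of the 208 clonotypes (38.0%), followed by IGHV1-19 with 37, IGHV1-18 with 36, IGHV1-39 with 26 and IGHV1-22 with 24. IGHV1-34 had 4, and IGHV1-20 and IGHV1-37 had 1 each. IGHV1-26 had the most D-proximal clonotypes, alone or tied, in 6 of the 8 mice with any, and the most reads in 4 of 8. In the RefSeq table of the GRCm38.p6 assembly, used here for names and order only, 22 V segments and 20 pseudogenes carry Ighv1 numbers from 1 to 39. Clonotypes came from 8 of those 22 V segments and from 0 of the pseudogenes. For comparison, clonotypes came from 16 IGHV1 genes numbered 40 or above, where the assembly lists 38 V segments. D-proximal here means within IGHV1: Ighv1-18 and Ighv1-39 stand at places 96 and 119 of the 183 Ighv genes of that assembly. The 9 Ighv1 V segments nearest to D, numbered 4 to 16, had 0 of 565 clonotypes, which allows a share of up to 0.531%. That limit takes pooled clonotypes as independent, and WT mice 1418 and 1536 held 185 and 235 of them. By mouse the limit ran from 1.28% in WT mouse 1536 to 60% in KO mice 1500 and 1534. Whether the Vh558 primer amplifies these segments was not tested. Ighv1-19-1, Ighv1-23, Ighv1-24, Ighv1-31 and Ighv1-36, which lie among the used genes, also had 0.

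IGHV1-26 took 19.5, 17.4, 14.3 and 13.2% of the clonotypes of WT mice 1418, 1432, 1485 and 1536. In KO mice 1423, 1464 and 1500 it took 5.26, 9.38 and 20%, and 1421 and 1534 had 0 of 16 and 0 of 5 clonotypes. All 4 WT mice thus lay above 4 of the 5 KO mice, and KO mouse 1500, where the share is 1 clonotype of 5, lay above all WT mice. In edgeR's quasi-likelihood test on clonotypes per gene and mouse, with each mouse's total clonotypes as library size, the log2 fold change KO against WT was -1.37 (SE 1.05, adjusted p = 0.850). DESeq2 gave -2.01 (SE 0.69, unadjusted p = 0.00344, adjusted p = 0.0551). With near-identical sequences of a mouse counted once, edgeR gave -0.81 (adjusted p = 0.811).

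No V gene was called at an adjusted p of 0.05: edgeR called 0 of 16 tested V genes (0%), 5 of them members. At an unadjusted p under 0.05 edgeR had 2 of 16 and none of them was a member; DESeq2 called 0 at an adjusted p of 0.05 and had 1 of 16 at an unadjusted p under 0.05, which was IGHV1-26. The median edgeR log2 fold change was -0.19 over the 5 members, 4 of which were negative. Over the other 11 genes it was 0.055, with 5 negative, and over all 16 genes it was -0.18. These medians were not tested.

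IGHV1-18 took 6.49, 4.35, 0 and 8.51% of the clonotypes of WT mice 1418, 1432, 1485 and 1536, and 6.25, 0, 3.12, 20 and 0% of those of KO mice 1421, 1423, 1464, 1500 and 1534. IGHV1-19 took 7.03, 0, 0 and 8.09% in the WT mice and 12.5, 1.75, 3.12, 20 and 0% in the KO mice, in the same order. Both genes overlapped between the genotypes, with 1 clonotype of 5 behind the values of 20%. Their edgeR log2 fold changes were -1.0 (SE 1.10, adjusted p = 0.850) and -0.17 (SE 0.95, adjusted p = 0.983). The value of IGHV1-18 was -0.36 without WT mouse 1536, -0.32 without KO mouse 1423, -1.60 without KO mouse 1500 and -0.086 with at least 10 reads. IGHV1-22 was found in 2 WT mice (5.95% in 1418 and 3.40% in 1536) and 2 KO mice (6.25% in 1421 and 7.02% in 1423), with an edgeR log2 fold change of 0.07 (SE 1.08, adjusted p = 0.983). IGHV1-39 took 3.78, 4.35 and 5.53% of WT mice 1418, 1432 and 1536 and 7.02 and 3.12% of KO mice 1423 and 1464, with an edgeR log2 fold change of -0.19 (SE 1.06, adjusted p = 0.983). The signs of IGHV1-19, IGHV1-22 and IGHV1-39 turned under other settings. The 3 least used genes each came from few mice: IGHV1-34 from WT mice 1418 and 1536, IGHV1-20 from KO mouse 1464 and IGHV1-37 from KO mouse 1421.

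**Figure D2:**
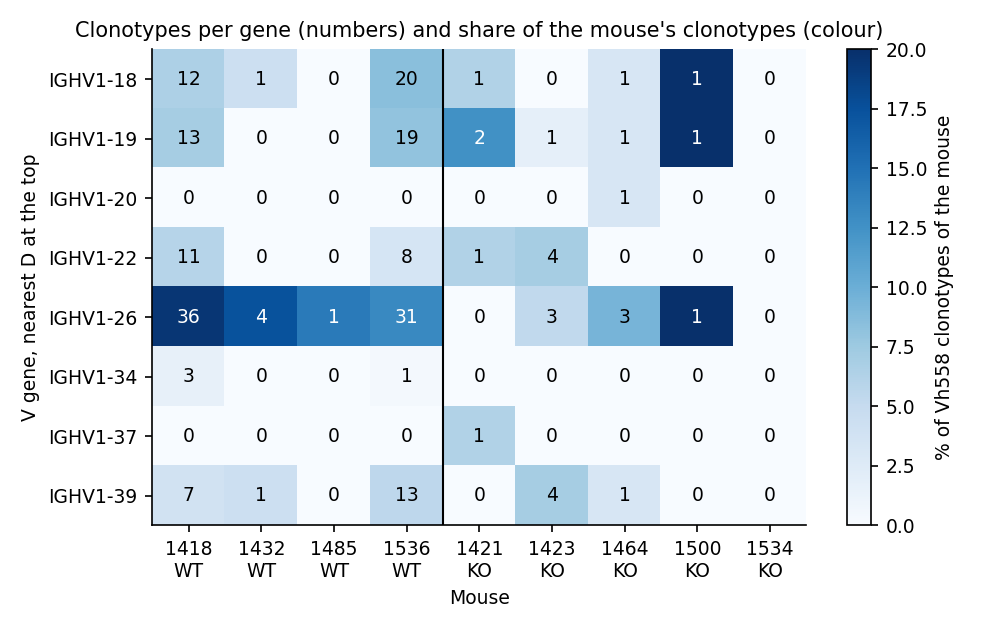
D-proximal V genes, ordered by number from nearest D, against the 9 mice: printed numbers are clonotypes and colour is the share of that mouse's Vh558 clonotypes (%). IGHV1-26 is filled in all 4 WT mice (13.2 to 19.5%) and in 3 of 5 KO mice, and the 20% cells of KO mouse 1500 are 1 clonotype each.

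D segments fall into families that include DFL16 (IGHD1), DSP2 (IGHD2), DST4 (IGHD3) and DQ52 (IGHD4), with DFL16 at the V side of the D cluster and DQ52 at the J side. A D segment was assigned in 193 of the 208 D-proximal clonotypes: DSP2 in 107, DFL16 in 53, DQ52 in 12 and DST4 in 8. The rest had IGHD5 genes, led by IGHD5-7 in 6, or IGHD6-2, in 3. The leading single D genes were IGHD1-1 (53) and IGHD2-4 (45), and IGHD1-1 was the only DFL16 gene seen and was present in all 8 mice. The pooled counts of partners are given by V gene, with no test. IGHV1-26 had DSP2 in 51 of 77 joins with a D (66.2%) and DFL16 in 16 (20.8%), while IGHV1-19 had DSP2 in 13 of 36 (36.1%) and DFL16 in 15 (41.7%). That gap shrank when near-identical sequences of a mouse (linked by at most 2 differing bases) were counted once. IGHV1-26 then had DSP2 in 31 of 56 groups, and IGHV1-19 in 13 of 30. Of the 29 pairs of IGHV1-26 with IGHD2-4, 25 were in WT mouse 1418, and they formed 11 groups over all mice.

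The 15 D-proximal clonotypes with no D segment were all in WT mice 1536 (12) and 1418 (3). IGHV1-18 held 8 of them, which is 22.2% of its 36 clonotypes, against 2 of 79 for IGHV1-26 and 1 of 37 for IGHV1-19. The 8 formed 6 groups of near-identical sequences. In KO mice all 27 D-proximal clonotypes had a D segment. Over mice the share with a D was 95.8% ± 6.16 (SD, n = 4) in WT and 100% in each of 4 KO mice, a difference that an exact permutation test did not separate (p = 0.429, two-sided, adjusted p = 0.857).

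IGHJ4, the J segment beside the reverse primer, was used in 197 of the 208 D-proximal clonotypes (94.7%); IGHJ3 was used in 7, IGHJ2 in 4 and IGHJ1 in 0. All 4 IGHJ2 joins were in KO mice, and 5 of the 7 IGHJ3 joins were in WT mice. The other IGHV1 genes had IGHJ2 in 5 of 269 WT and 8 of 88 KO clonotypes, and IGHJ3 in 13 and 15. These pooled counts were not tested. The WT mean share of IGHJ4 was 90.8% ± 16.1 (SD, n = 4) and the KO mean 75.4% ± 7.66 (SD, n = 4). KO minus WT was -15.4 points (95% interval -33.3 to 16.7; exact permutation p = 0.143, adjusted p = 0.533). Without WT mouse 1432 it was -23.5 points (exact permutation p = 0.0286, adjusted p = 0.229). The 11 joins to IGHJ2 or IGHJ3 were spread over 7 mice, with 6 in IGHV1-26, 4 in IGHV1-19 and 1 in IGHV1-39, and each had only 2 to 4 reads. With at least 10 reads required, 101 of 101 D-proximal clonotypes used IGHJ4 and the difference between genotypes was 0. Among the other IGHV1 clonotypes, 9 of 44 joins to a J segment other than IGHJ4 had at least 10 reads.

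The V end of most D-proximal joins was intact. No germline V base was lost in 146 of 208 clonotypes (70.2%), and 40 of these (19.2% of all) also carried P bases. The longest loss was 5 bases. By gene the intact share ran from 62.5% for IGHV1-22 to 73.4% for IGHV1-26 among the 5 genes with at least 24 clonotypes, and P bases ran from 11.5% for IGHV1-39 to 27.8% for IGHV1-18. The mean loss per clonotype was 1.15, 0.67, 0 and 0.59 bases in WT mice 1418, 1432, 1485 and 1536, and 1.40, 0.42, 0 and 0.33 bases in KO mice 1421, 1423, 1464 and 1500. The groups overlapped, with means of 0.60 ± 0.47 (SD, n = 4) and 0.54 ± 0.60 (SD, n = 4) bases and an exact permutation p of 0.943 (adjusted p = 0.943).

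**Figure D3:**
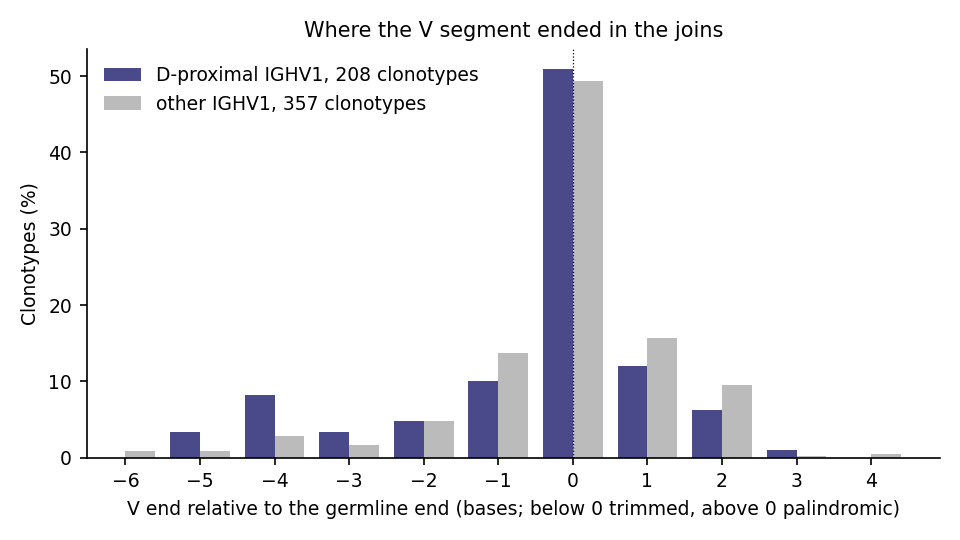
Distribution of the V end position (bases relative to the germline end; negative is trimmed, positive is P bases) as a percentage of clonotypes for 208 D-proximal and 357 other IGHV1 clonotypes. Both peak at 0, and the D-proximal bar at -4 stands for 17 of 208 clonotypes, against 10 of 357 of the other genes.

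A loss of exactly 4 bases was seen in 17 D-proximal clonotypes, 9 of them IGHV1-26 and all in WT mice. The largest family of near-identical IGHV1-26 sequences, described further on, has such an end. With near-identical sequences counted once, 10 of 161 groups had lost 4 bases, against 9 of 285 groups of the other IGHV1 genes. These counts were not tested. The mean loss of IGHV1-26 went from 0.89 to 0.48 bases.

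D-proximal CDR3s averaged 46.1 nt over all 208 clonotypes and ranged from 21 to 78 nt, in steps of 3 since the table holds in-frame joins. By gene the mean was 45.3 ± 9.51 nt (SD over 36 clonotypes) for IGHV1-18, 43.5 ± 7.73 (37) for IGHV1-19, 46.1 ± 4.99 (24) for IGHV1-22, 47.4 ± 7.86 (79) for IGHV1-26 and 48.1 ± 6.09 (26) for IGHV1-39. The gene means were not tested against each other. IGHV1-18 held the longest CDR3, and the shortest was found in IGHV1-18 and IGHV1-19.

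Per mouse the mean D-proximal CDR3 was 46.8, 45.0, 48.0 and 46.0 nt in WT mice 1418, 1432, 1485 and 1536 and 42.6, 45.2, 46.3 and 39 nt in KO mice 1421, 1423, 1464 and 1500. The KO values reached lower and 2 of them lay within the WT range. The means were 46.4 ± 1.26 nt (SD, n = 4) and 43.3 ± 3.25 nt (SD, n = 4), a difference of -3.17 nt (95% interval -9 to 1.29; exact permutation p = 0.143, adjusted p = 0.533). Without KO mouse 1500, which had 3 clonotypes, the difference was -1.74 nt, with at least 10 reads it was -0.67 nt, and weighted by reads it was 0.90 nt. Inserted bases, those between V and D and between D and J, averaged 8.35 ± 1.21 (SD, n = 4) in WT mice and 6.4 ± 2.24 (SD, n = 4) in KO mice (exact permutation p = 0.2, adjusted p = 0.533). The difference of -1.96 became -0.96 without KO mouse 1421, 0.075 within batch 185891a and -5.67 within batch 187183a. No bases were inserted in 3 of 27 KO and 2 of 181 WT clonotypes. Among the other IGHV1 genes the counts were 2 of 88 KO and 4 of 269 WT clonotypes. These pooled counts do not treat the mouse as the replicate and were not tested.

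DFL16 was found in 13.9, 16.7, 100 and 41.25% of the D-proximal joins with a D in WT mice 1418, 1432, 1485 and 1536, and in 40, 8.33, 42.9 and 33.3% of those in KO mice 1421, 1423, 1464 and 1500. The value of 100% is 1 clonotype. Neither DFL16 (difference -11.8 points, exact permutation p = 0.686, adjusted p = 0.943) nor DSP2 (3.45 points, p = 0.914, adjusted p = 0.943) was separated between genotypes. With 4 mice on each side the smallest p this test can give is 0.0286, and p-values were adjusted over the 8 measures. A single measure at that permutation p has an adjusted p of 0.229, as IGHJ4 had without WT mouse 1432. It could not pass alone, so the lack of a pass is no evidence of equal genotypes.

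Within the same mouse, D-proximal clonotypes were set against those of the IGHV1 genes further from D, and no measure passed after adjustment. The D-proximal share with a D was 96.3, 100, 100 and 87.0% in WT mice 1418, 1432, 1485 and 1536, against 86.4, 88.2, 83.3 and 87.4% for the other IGHV1 genes. In KO mice 1421, 1423, 1464 and 1500 it was 100% throughout, against 90.9, 80.0, 92.0 and 50%. The D-proximal value was the higher one in 7 of 8 mice, and WT mouse 1536 was the exception. The mean difference was 15.6 points (95% interval 5.65 to 29.5; exact sign-flip permutation p = 0.0156, two-sided, adjusted p = 0.125), and without KO mouse 1500, where the other genes had 2 clonotypes, it was 10.7 points. The smallest p that 8 mice allow in this test is 0.0078. With near-identical sequences counted once, the share with a D reached that sign-flip p, and its adjusted p was 0.0625. A single measure therefore could not pass alone, and the lack of a pass is no evidence of equality.

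The DFL16 share was 37.0% ± 28.8 (SD, n = 8) for D-proximal and 19.0% ± 20.5 (SD, n = 8) for the other IGHV1 clonotypes. D-proximal was higher in 6 of 8 mice, by 18 points on average (95% interval 1.09 to 36.7; exact sign-flip permutation p = 0.0391, adjusted p = 0.156). WT mouse 1485 gave 40 points from 1 D-proximal clonotype, and KO mouse 1500 gave 33.3 points against 1 other clonotype. WT mice 1418 and 1536, with the most clonotypes, gave -5.18 and 10.85 points. The mean difference was 11.8 points in mice with at least 3 clonotypes (exact sign-flip permutation p = 0.156). Weighted by reads it was 18.3 points (exact sign-flip permutation p = 0.211). The mean CDR3 was longer in 6 mice, shorter in 1 and equal in 1, with a mean difference of 1.71 nt (95% interval -0.80 to 3.95; exact sign-flip permutation p = 0.141, adjusted p = 0.281). The IGHJ4 share was higher in 6 of 8 mice, with a mean difference of 10.9 points (95% interval -3.23 to 27.7; exact sign-flip permutation p = 0.133, adjusted p = 0.281). It was 5.36 points without WT mouse 1485, 3.48 in mice with at least 3 clonotypes and 0.71 weighted by reads. V end loss differed by -0.036 bases (95% interval -0.61 to 0.53), inserted bases by -0.26 (-1.72 to 1.18), DSP2 by -5.58 points (-32.2 to 17.2) and log2 clone size by 0.49 (-0.42 to 1.63). These 4 had exact sign-flip permutation p-values from 0.375 to 0.906.

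None of the 8 within-mouse differences was separated between WT and KO, in a test that a single measure could not pass after adjustment. The lowest p was that of inserted bases, where the D-proximal minus other difference averaged 0.71 in WT and -1.23 in KO (exact permutation p = 0.0571, adjusted p = 0.457).

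**Figure D4:**
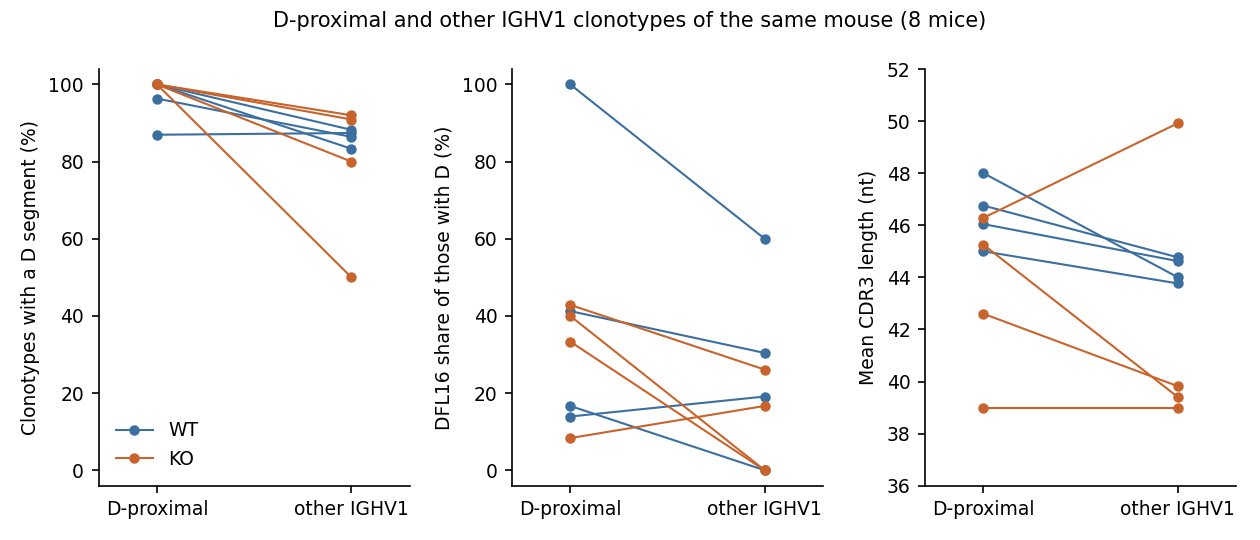
Each line joins the D-proximal value to the value of the other IGHV1 genes in one of 8 mice (WT blue, KO orange), for the share of clonotypes with a D segment (%), the DFL16 share of those with a D (%) and the mean CDR3 length (nt, axis not from 0). The first panel falls to the right in 7 mice, and the single WT line that does not fall is mouse 1536.

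Clone size, the reads of a clonotype as a percentage of its mouse's reads, ranged widely. The largest D-proximal clonotype held 9.46, 15.0, 14.6 and 0.749% of the reads of WT mice 1418, 1432, 1485 and 1536, and 11.5, 12.8, 6.41 and 35.3% of those of KO mice 1421, 1423, 1464 and 1500. It was the largest clonotype of all in WT mouse 1418 and ranked 34 in WT mouse 1536. WT mouse 1536 thus had many D-proximal clonotypes and none above 29 reads. At least 100 reads were reached by 32 of the 208 clonotypes, 12 of them IGHV1-26. The single IGHV1-37 clonotype had 1334 reads, the single IGHV1-20 clonotype 66.

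The mean log2 clone size was -2.78, -1.86, 3.87 and -2.53 in WT mice 1418, 1432, 1485 and 1536 and 0.66, -2.60, -1.93 and 2.15 in KO mice 1421, 1423, 1464 and 1500. The highest value, in WT mouse 1485, rests on 1 clonotype. Clone size is a share of a mouse's own reads, so it also depends on how many clonotypes the mouse had. Mice 1485, 1421 and 1500, with values above 0, had 7, 16 and 5 Vh558 clonotypes. Those with values below 0 had 23 to 235. This relation was not tested. The groups overlapped (exact permutation p = 0.857, adjusted p = 0.943).

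Repeat libraries of the same mouse shared few D-proximal clonotypes. WT mouse 1418 had 14 of 82 in both libraries, which held 57.0% of its D-proximal reads. WT mouse 1536 had 0 of 92, KO mouse 1421 0 of 5 and KO mouse 1423 0 of 12. A clonotype of 2303 reads in KO mouse 1423, the IGHV1-22 join printed above, was seen in 1 library of the pair. The other IGHV1 genes shared 6 of 103, 6 of 143, 1 of 11 and 10 of 45 in the same mice. Of the 14 repeated sequences 8 were IGHV1-26, 3 IGHV1-39, and 1 each IGHV1-18, IGHV1-22 and IGHV1-34. No D-proximal CDR3 was found in more than 1 mouse.

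In WT mouse 1418 many D-proximal clonotypes were near-identical. Merging sequences of the same V gene and length that differed by at most 2 bases turned its 82 clonotypes into 42 groups, a loss of 48.8%, against 26.2% for its other IGHV1 clonotypes (103 into 76). A sequence joined a group when it was that close to any sequence in it. Sequences of a group could therefore differ by more, and in an IGHV1-39 group some lay 3 bases from the most abundant one. In WT mouse 1536 the 92 became 86 (6.52%), KO mouse 1423 went from 12 to 11 (8.33%), and the other 5 mice with members lost none. In 5 mice the order was the reverse of that in mouse 1418: the other IGHV1 genes lost 9.79% in WT mouse 1536, 11.8% in 1432, 18.2% in KO mouse 1421, 33.3% in 1423 and 40% in 1464. Over all mice the loss was 22.6% for D-proximal and 20.2% for other IGHV1 clonotypes. By groups the WT mean of the D-proximal share was 29.6% ± 11.2 (SD, n = 4) and the KO mean 30.9% ± 21.5 (SD, n = 5). The difference of 1.26 points had the opposite sign to that by clonotypes and was again smaller than the spread.

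**Figure D5:**
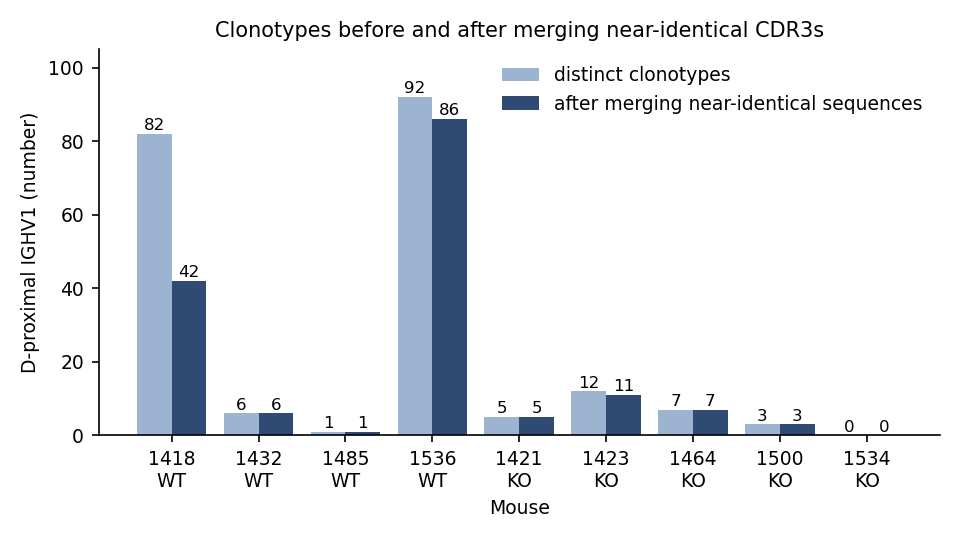
Number of D-proximal clonotypes per mouse before (light) and after (dark) merging sequences linked by at most 2 differing bases. WT mouse 1418 goes from 82 to 42 and WT mouse 1536 from 92 to 86.

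The largest such group is printed because its members show where the differences lie. It is the IGHV1-26 join with IGHD2-4 of WT mouse 1418, with 7 sequences and 1991 reads (15.2% of the reads of the mouse); capitals mark bases that differ from the most abundant sequence.
Sequence 1, 1241 reads: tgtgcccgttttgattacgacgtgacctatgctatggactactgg
Sequence 2, 338 reads: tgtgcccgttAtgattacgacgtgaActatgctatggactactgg
Sequence 3, 158 reads: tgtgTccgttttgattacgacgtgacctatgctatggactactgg
Sequence 4, 116 reads: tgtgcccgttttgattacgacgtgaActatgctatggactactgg
Sequence 5, 91 reads: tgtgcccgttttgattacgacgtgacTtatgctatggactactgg
Sequence 6, 38 reads: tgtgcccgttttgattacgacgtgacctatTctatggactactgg
Sequence 7, 9 reads: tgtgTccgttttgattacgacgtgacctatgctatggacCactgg
The differences fall in the V part, in the inserted bases and in IGHJ4, and some recur in more than 1 sequence.
Sequences 1 and 2 were found in both libraries of the mouse.

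A second IGHV1-26 join with IGHD2-4 in the same mouse had 7 sequences and 931 reads, an IGHV1-39 join with IGHD2-6 had 6 and 455, and an IGHV1-34 join had 3 and 462. Over all mice 20 groups held 2 or more sequences, 14 of them in WT mouse 1418, and 67 clonotypes in all. Their 69 differing bases, counted against the most abundant sequence of each group, lay in J (24), between the segments (24), in V (19) and in D (2). Transitions made up 34 and transversions 35.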

How the data were processed

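Vh558 rearrangements of pro-B cell DNA were read in 13 libraries of 9 mice. The authors deposited un-normalized read counts per clonotype in a table over the whole series, which the series title ties to MiXCR. Its version, its settings and the build: not given in the sources used here. Positions of the V, D and J ends within the CDR3, in bases, are other deposited columns.

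Repeat libraries of a mouse were merged by V gene and CDR3, and reads were summed. There were 2 libraries of the table (22 entries) that were not used, namely a rerun of KO mouse 1534 and a library named for KO mouse 1500 that could be tied to none of the samples. The authors also deposited clone counts per sample, and 163 of the 208 member sequences, with 99.0% of their reads, recur there. A best V hit tied with another gene in 2 members, and 11 lay within 2 bases of a clonotype of another V gene in the mouse.

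Measures were averaged over clonotypes per mouse. Genotypes were compared with two-sided exact permutation tests, members with other IGHV1 genes by exact sign-flip permutation, and 95% intervals came from inverting these tests. Benjamini-Hochberg adjustment ran over 8 measures per family. Clonotypes without an assigned D count as a single stretch of inserted bases. Usage was tested with edgeR 4.0.16 (limma 3.58.1, R 4.3.3) for V genes with at least 10 clonotypes at an adjusted p of 0.05, with DESeq2 1.42.0 as alternative. Standard errors of edgeR folds were taken from fold and F statistic. The exact tests ran in Python 3.11.15 with scipy 1.17.1, and the tests were tested on simulated data.

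All members are named, other V genes only past the usage threshold, and single clonotypes where they are the largest of a mouse or recur. The members, lists and tests were chosen with earlier results of these data known. P-values measure the spread between these mice.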

Additional observations from a re-analysis of the deposited data

Results flagged for a closer look

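In 4 of 21 sets of mice with values, 1 mouse stood apart from the others of its genotype by Dixon's test. A chance rate of about 1 in 20 sets holds for independent, normally distributed values. These sets share mice and often rest on few clonotypes, so 4 of 21 is not read as an excess over chance. WT mouse 1418 lost 48.8% of its D-proximal sequences on merging near-identical ones, and the next WT mouse lost 6.52%. KO mouse 1423 lost 8.33%, which is 1 sequence of 12, against 0 in the other KO mice with members. Where all other values are 0, any value is flagged. IGHJ4 made up 66.7% of the D-proximal clonotypes of WT mouse 1432 (n = 6) and 97.6% of those of the nearest WT mouse. The mean log2 clone size of WT mouse 1485 was 3.87, from 1 clonotype, and the nearest WT mouse had -1.86.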

How the results depend on the processing

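Of 454 values under the alternatives, 403 were labelled as unchanged, which for tested differences meant no change of sign or side of the threshold. For the untested D-proximal shares of clonotypes and reads, that label also covers changes of sign. The share of clonotypes differed by 0.83 points with at least 10 reads and by 1.26 with near-identical sequences counted once. The share of reads differed by 2.27 points within batch 185891a. No measure of the members passed at an adjusted p of 0.05, in the main setting or under any alternative. A single measure could not do so alone. With at least 10 reads per clonotype edgeR called 1 V gene, IGHV1-81, which is not a member. The D-proximal share of clonotypes differed by -23.3 points within batch 187183a, where both KO libraries lay below both WT libraries. The repeat libraries of KO mouse 1423 disagreed, as given above. Leaving out 1 mouse at a time gave differences from -12.4 to 2.58 points for the share of clonotypes and from -9.67 to 4.49 for that of reads. Several differences of the tested measures also changed sign, and the cause was not tested. For KO minus WT these were V end loss (0.081 with at least 10 reads, 0.34 within batch 187183a, 0.17 weighted by reads; -0.35 to 0.12 without 1 mouse), inserted bases (0.075 within batch 185891a), CDR3 length (0.90 weighted by reads), DFL16 (0.67 with at least 10 reads, 21.5 within batch 187183a, 8.12 weighted by reads, 7.18 in mice with at least 3 clonotypes; -21.5 to 7.18 without 1 mouse), DSP2 (-1.78, -27.7, -1.30 and -12.5 in the same order; -12.5 to 15.3 without 1 mouse) and log2 clone size (-0.50 within batch 185891a; -0.46 to 1.96 without 1 mouse). For D-proximal minus other within mice they were V end loss (0.021 with at least 10 reads, 0.64 within batch 187183a, 0.19 weighted by reads, 0.17 in mice with at least 3 clonotypes; -0.18 to 0.13 without 1 mouse), DSP2 (2.65 with at least 10 reads and 7.0 in mice with at least 3 clonotypes; -9.95 to 3.14 without 1 mouse), log2 clone size (-1.01 weighted by reads) and inserted bases (-0.63 to 0.12 without 1 mouse). Among usage log2 fold changes, IGHV1-22 turned with at least 10 reads (-0.36), with repeat libraries counted separately (-0.040), with TMM (-0.36) and in DESeq2 (-0.50), and IGHV1-39 with at least 10 reads (1.20) and with near-identical sequences counted once, at 2 bases (0.39) or 1 base (0.25). Without 1 mouse IGHV1-19 ran from -0.73 to 0.53, IGHV1-22 from -1.08 to 0.70 and IGHV1-39 from -1.32 to 0.050, while IGHV1-18 stayed between -1.60 and -0.32 and IGHV1-26 between -1.72 and -1.06. Over the same omissions KO minus WT ran from -4.17 to -1.74 nt for CDR3 length, from -2.60 to -0.96 for inserted bases and from -23.5 to -12.4 points for IGHJ4, and IGHJ4 within mice from 5.36 to 14.9 points. Counting near-identical sequences once was chosen after seeing the data.

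Few clonotypes limit the precision: 5 of 9 mice had at most 6 D-proximal clonotypes. In batch 185891a alone 4 V genes were tested, and IGHV1-26 gave a log2 fold change of -0.69. No paired analysis was possible because WT and KO mice are different animals and share no mouse number.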
